A study of Mus musculus with 158 samples.

Results

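The messenger and noncoding RNA of B6xSPRET tissues was compared with that of B6xPWK tissues. Both are F1 hybrids with a C57BL/6J dam: the B6xSPRET sire was SPRET/EiJ, an inbred strain of the species Mus spretus, and the B6xPWK sire was PWK/PhJ, an inbred wild-derived strain of Mus musculus musculus. The members were the RNA libraries labelled B6xSPRET or B6xPWK, 12 of the 17 RNA libraries and of the 158 samples of the series. The 7 B6xSPRET libraries were 2 each of kidney, liver and lung and 1 of B cells, and the 5 B6xPWK libraries were 2 of B cells and 1 each of kidney, liver and lung. Every library thus carried 1 C57BL/6J genome, and the mitochondrial genome came from the C57BL/6J dam in both hybrids. All mice were killed at 8 weeks of age. Bone marrow was taken from the femurs of females, and B cells were what remained after CD43 and CD11b positive cells were depleted, so that no positive marker selected them. Solid tissues were usually pooled from several mice killed together, the sex of which is not given in the sources used here. Nothing in the labels says that the 2 libraries of a hybrid and tissue came from separate animals, so the spread between them may be technical. The p-values of the hybrid comparison below measure this spread and also how far hybrid differences varied from tissue to tissue. The 4 libraries of B6xC3H, whose sire was C3H/HeJ, entered the same fit to share its estimate of the spread. Their values stand beside those of the 2 hybrids at some of the genes below.

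In a first-generation hybrid each cell holds 1 haploid genome of each parent, so that the total RNA of a gene sums what the 2 parental copies produce, and a difference between 2 hybrids with the same dam can come from the copy given by the sire. Sequence differences of the sire can change promoters and enhancers, splice sites and polyadenylation signals. They can also add or remove gene copies and retrocopies, the intronless copies that reverse transcription of an mRNA leaves elsewhere in the genome. The paper mapped RNA reads of each hybrid both to the C57BL/6J reference and to a genome of its own strain. The labels name only the reference build, mm10, and which mapping the deposited tables rest on is not stated. Mus spretus is the more distant of the 2 sires from the reference.

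Each value rests on 1 number per gene and library, the expected count of RSEM, a program that shares reads among the transcripts they may come from. The deposited tables summed to between 283725 and 516134 expected counts in the 12 libraries. Between 6565 and 15132 genes had a count of at least 1. The paper lists far more nonredundant RNA reads for each of these libraries, so the tables hold only a small part of the reads. The reason was not tested. Scaled counts and abundances below are relative to this part and do not give the share of a gene among all RNA reads. Most counts fell on genes whose exons overlap exons of another gene on the opposite strand: such genes are 9052 of the 53715 in the tables, and they took from 73.75% to 90.35% of the counts of a library. In kidney, for instance, the antisense gene Gm44588 held 8815 counts in B6xPWK and 4559 and 2828 in B6xSPRET, where Umod, the gene of the abundant urinary protein uromodulin on the other strand, held 26, 12 and 9. The libraries were made with a stranded kit, and the tables appear to count the strand opposite to the transcripts. The gene with exons on the other strand is therefore named beside each entry below, and for a gene with no annotated exon on the other strand the annotation does not name the transcript that was counted. By these entries the tissue labels matched their markers: summed scaled counts, in the usual unit of CPM, opposite liver marker genes lay between 45800 and 58500 in the 3 liver libraries and at or below 86.5 in the other 9, and opposite B cell marker genes between 3090 and 3630 in the 3 B cell libraries and at or below 212 elsewhere. Entries opposite kidney marker genes summed to between 9360 and 20600 CPM in kidney and to at most 6.45 elsewhere, and the lung marker genes' own entries summed to between 145 and 315 CPM in lung and to at most 29.0 elsewhere. The 1 entry opposite a lung marker gene went against the label, with 400 CPM in B6xPWK lung and 940 and 967 in B6xSPRET lung but from 319 to 873 in liver. The second B6xSPRET liver library stood apart, with 43.12% of its counts in its 10 highest genes and the fewest genes detected, as did the B6xPWK lung library, with 73.75% of counts on genes with opposite-strand exons against 83.34% and 84.4% in B6xSPRET lung. The B6xPWK liver library held counts opposite muscle genes, described below. Of 3 library measures tested (the share of counts on genes that overlap others on the opposite strand, the share of the 10 highest genes and the genes detected), the share of the 10 highest genes differed with p = 0.0247 in an exact two-sided permutation test that exchanged hybrids within tissues (adjusted p = 0.0741 over the 3 measures). The smallest p that its 81 arrangements allow is 0.0123.

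Between the 2 hybrids, 195 of 7232 genes tested passed an adjusted p of 0.05 in edgeR's quasi-likelihood test with tissue as a covariate (2.70%). Of these, 111 were higher in B6xSPRET (1.53% of those tested) and 84 lower (1.16%). Fewer cells of a type and less RNA per cell cannot be told apart in these bulk samples. Large differences were common among the called genes: 76 of the higher and 52 of the lower genes differed by at least 2 on the log2 scale, and the median over all genes tested was -0.06. The call itself favours large differences. In simulated counts of this design it found 26.5% of 2-fold and 95.5% of 4-fold changes. For 138 of the 195 the mean difference had the same sign in B cells, kidney, liver and lung. The call averages these same differences, so a shared sign is partly built into it. For 45 the 7 B6xSPRET and 5 B6xPWK libraries did not overlap in CPM, where 0.470% of all genes tested lay higher without overlap and 0.373% lower. In 28 of the 195 all libraries of 1 hybrid were at 0. The shares of all genes tested with a shared sign, or with 1 hybrid at 0, were not counted. Fitted with limma on log2(TPM + 1), a scale that moved the median of all genes to -0.24, 68 genes passed, of which 39.71% were higher in B6xSPRET against 56.92% in edgeR. Without the B6xPWK lung library 105 genes were called, without the first B6xSPRET lung library 126, and without the B6xPWK kidney library the lower genes fell to 54. Without both the B6xPWK liver library and the second B6xSPRET liver library, an alternative added after the data were seen, 152 were called, 83 higher and 69 lower.

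**Figure D1:**
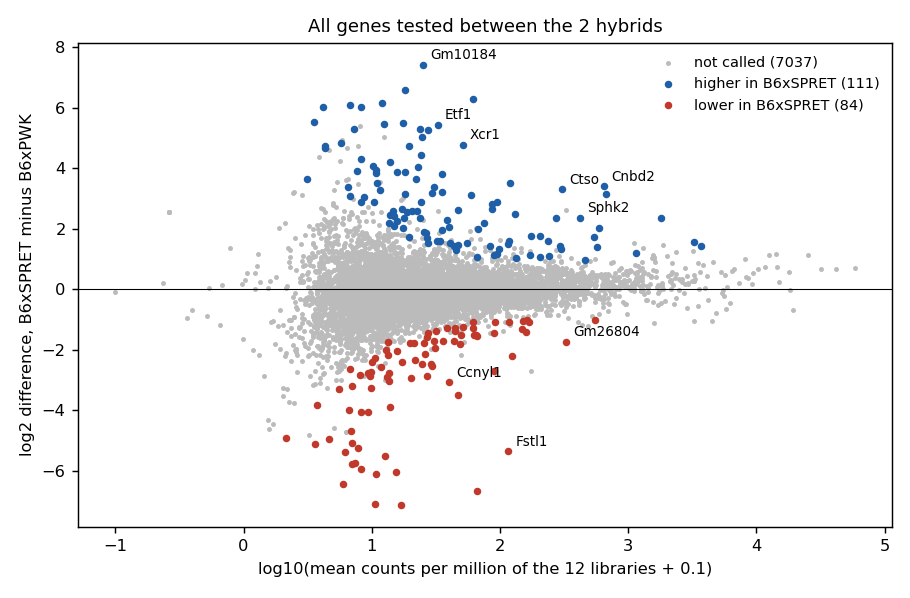
Each point is 1 of the 7232 genes tested, with the log10 of its mean CPM over the 12 libraries (plus 0.1) on the horizontal axis and the log2 difference, B6xSPRET minus B6xPWK, on the vertical axis. Blue points are the 111 genes called higher and red points the 84 called lower in B6xSPRET, and grey points were not called.

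Protein-coding genes made up 128 of the called genes (2.97% of 4312 tested), noncoding or unconfirmed genes 51 (2.23% of 2292) and pseudogenes 14 (2.48% of 564). Genes with exons on the opposite strand were called in 82 of 3792 cases (2.16%) and genes without in 113 of 3440 (3.28%). Chromosome 4 held 20 called genes of 400 tested (5.00%), 10 in each direction, and none of the 16 mitochondrial genes tested was called.

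The largest group of named genes was present in B6xSPRET in most tissues and at or near 0 both in B6xPWK and in B6xC3H. The clearest was Xcr1, the receptor of the chemokine XCL1 that marks cross-presenting dendritic cells, at chr9:123852315-123862029 (GRCm38) with no annotated exon on the opposite strand. Its 7 B6xSPRET libraries ranged from 46.2 to 171 CPM with a median of 86.5, and the B6xPWK libraries held 3.38 and 3.23 CPM in B cells, 4.39 in kidney and 0 in liver and lung. All 7 were above all 5 (log2 difference 4.77 ± 0.53 SE, edgeR adjusted p = 1.23e-07), and B6xC3H ranged from 0 to 20 CPM. Etf1, which encodes the release factor eRF1 that ends translation at stop codons, had a median of 48.3 CPM in B6xSPRET, with the second liver library lowest at 8.56. In B6xPWK it had 0 CPM in both B cell libraries and kidney, 4.98 in liver and 2.85 in lung, without overlap. Its summed counts were 161 against 3, a ratio of 55.7 per unit of library size (95% counting interval 18.7 to 273).

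Olfr613 and Olfr1279, genes of receptors of the olfactory epithelium, followed the same order. Olfr613 on chromosome 7 ranged from 18.0 to 67.7 CPM with a median of 51.3 in B6xSPRET, and in B6xPWK only 1 B cell library was above 0, at 3.23 CPM. The summed counts were 125 against 2, a ratio of 64.9 (counting interval 17.6 to 542). Olfr1279 on chromosome 2 ranged from 23.1 to 76.7 CPM in B6xSPRET and held 1.69 and 0 CPM in B6xPWK B cells, 6.59 in kidney, 9.95 in liver and 1.42 in lung (log2 difference 3.82 ± 0.52 SE, edgeR adjusted p = 5.79e-06). Both were at 0 in all 4 B6xC3H libraries. Their groups did not overlap.

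Gm10184, a predicted protein-coding gene on chromosome 17, was at 0 in all 5 B6xPWK libraries and had counts in 6 of the 7 B6xSPRET libraries, from 3 to 48, with none in the first liver library. Over the group it was at least 45.7-fold higher in B6xSPRET, taking 3 counts over the B6xPWK group as the floor. Hecw2, a ubiquitin ligase of the HECT type with Mir7681 inside it on the other strand, reached 190 CPM in B6xSPRET B cells and lay between 0 and 32.9 in the other 6 libraries, against 0 to 2.20 CPM in B6xPWK. Its call was lost without the B6xSPRET B cell library (log2 difference 3.01, adjusted p = 0.1125).

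The same order was seen at Gm48094, an antisense gene on chromosome 10 opposite Supt4b, a processed pseudogene of Supt4a, the gene of a transcription elongation factor subunit. Both lie inside Tpd52l1, a protein-coding gene on the strand of Supt4b, and RNA of Supt4b and RNA of Tpd52l1 cannot be told apart in this entry. Gm48094 ranged from 21.3 to 85.6 CPM in B6xSPRET with a median of 38.5, and in B6xPWK it was above 0 only in kidney, at 4.39 CPM. The groups did not overlap, and the summed counts were 87 against 2 (ratio 45.1, counting interval 12.1 to 379). Since Supt4b is a copy of Supt4a, reads of the 2 loci may be shared and the assignment is uncertain. The DNase data of the same series bear on this place. DNase I hotspots, stretches of chromatin cut by the nuclease more than their surroundings, were deposited as 1 pooled set for each hybrid and tissue. A hotspot across the start of Supt4b was in all 4 B6xSPRET sets, with a -log10 FDR of 11.61 in B cells, 2.46 in kidney, 4.43 in liver and 2.92 in lung, and no B6xPWK set had one there. Its 244 bases, at chr10:31414038-31414281 of GRCm38.p6 on the plus strand, are printed as the reference has them, with the 128 bases that lie inside Supt4b in capitals and the 116 before its start in lower case. The sequence holds 9 CpG dinucleotides and 44.3% G and C.
hotspot at Supt4b: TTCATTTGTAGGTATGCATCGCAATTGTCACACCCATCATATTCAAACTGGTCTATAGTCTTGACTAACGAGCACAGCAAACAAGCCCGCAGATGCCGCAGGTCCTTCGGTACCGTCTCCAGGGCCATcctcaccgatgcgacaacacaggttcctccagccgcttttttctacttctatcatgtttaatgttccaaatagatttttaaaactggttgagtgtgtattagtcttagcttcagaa

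Gm15444 lies opposite Hist2h2ab, a gene of a replication-dependent H2A histone on chromosome 3. It ranged from 108 to 428 CPM in B6xSPRET with a median of 159, and in B6xPWK it held 6.76 and 17.7 CPM in B cells, 26.4 in kidney, 34.8 in liver and 4.27 in lung. The groups did not overlap (log2 difference 3.52 ± 0.39 SE, edgeR adjusted p = 1.17e-07), and B6xC3H lay between 6.65 and 31.4 CPM. Slc16a13, a monocarboxylate transporter gene that ends 372 bp from the oppositely oriented Slc16a11, ranged from 2.57 to 199 CPM in B6xSPRET and from 0 to 15.7 in B6xPWK, with B6xC3H between 0 and 38.3. It was highest in lung, at 180 and 199 CPM against 15.7, and in liver it held 126 and 77.1 CPM against 4.98 (log2 difference over tissues 3.12 ± 0.45 SE, adjusted p = 1.37e-05).

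In another pattern B6xPWK was low and B6xC3H was as high as B6xSPRET. Cnbd2, a gene of the cyclic nucleotide binding domain family on chromosome 2, has its exons opposite Gm14252 and Scand1, a SCAN domain gene of the zinc finger family. It was among the most abundant called genes, from 261 to 2250 CPM in B6xSPRET with a median of 763. The B6xPWK libraries held 128 and 229 CPM in B cells, 193 in kidney, 84.6 in liver and 22.8 in lung. All were below the lowest B6xSPRET library (log2 difference 3.40 ± 0.34 SE, edgeR adjusted p = 9.69e-09). B6xC3H held 3740 CPM in B cells, 953 in kidney, 725 in liver and 272 in lung, -0.07 on the log2 scale between B6xSPRET and B6xC3H (adjusted p = 0.969). Gm17728 on chromosome 17, opposite the processed pseudogene Gm17748, ranged from 61.9 to 556 CPM in B6xSPRET and from 4.98 to 33.9 in B6xPWK without overlap, and from 67.1 to 192 in B6xC3H (log2 difference 2.87 ± 0.43 SE, adjusted p = 2.84e-05).

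Ctso, the gene of the lysosomal protease cathepsin O, was almost a liver entry. It held 1160 and 2350 CPM in B6xSPRET liver, 159 in B6xPWK liver and 379 in B6xC3H liver, and at most 7.74 CPM in any other library. Tdo2, which encodes the tryptophan dioxygenase of hepatocytes, ends 365 bp from Ctso on the opposite strand. The log2 difference in liver was 3.45 ± 0.61 SE. The call over tissues (3.30 ± 0.55 SE, adjusted p = 1.89e-04) was lost without the only B6xPWK liver library (2.87, adjusted p = 0.114).

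**Figure D2:**
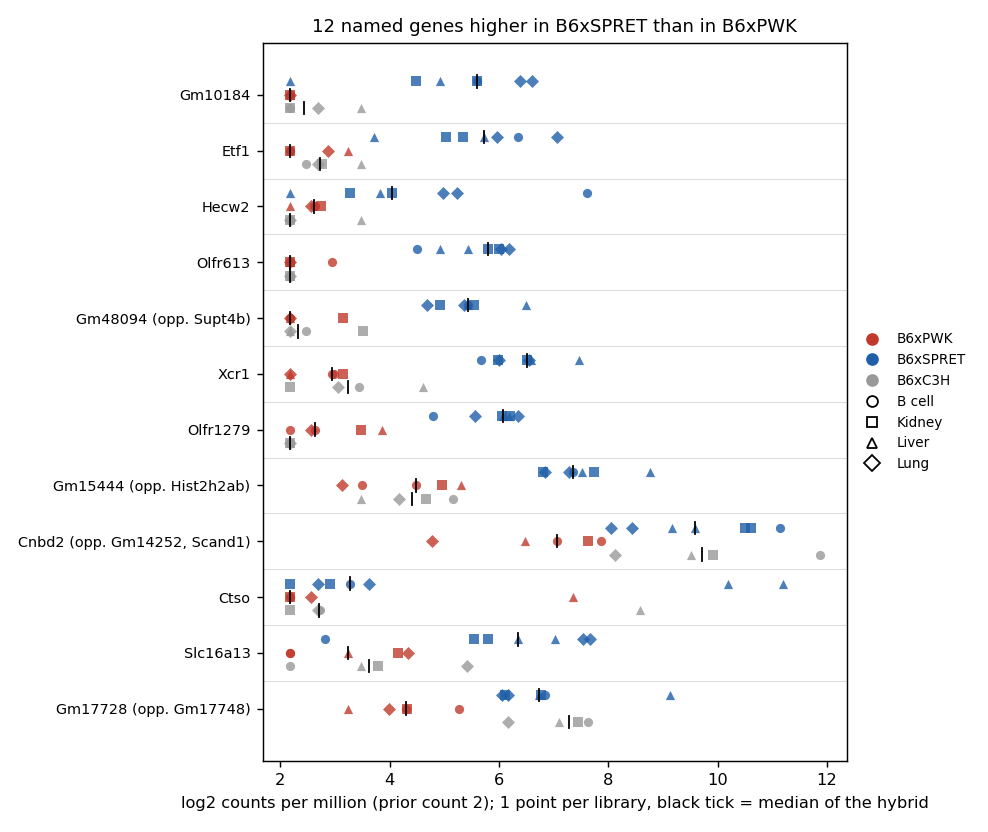
The 12 named genes higher in B6xSPRET, with log2 CPM on the horizontal axis. Each point is 1 library, its colour the hybrid and its shape the tissue, and black ticks mark the median of a hybrid. In Cnbd2 and Gm17728 the grey B6xC3H points lie with B6xSPRET, and in Xcr1 and the olfactory receptor genes they lie with B6xPWK.

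Among the lower genes, Fstl1 differed with the smallest p of all genes tested. Fstl1 encodes follistatin-like 1, a secreted glycoprotein made mainly by mesenchymal cells. The gene lies at chr16:37776873-37836514 (GRCm38) on the plus strand, with no annotated exon on the opposite strand. B6xPWK held 363 and 344 CPM in B cells, 185 in kidney, 24.9 in liver and 431 in lung. B6xSPRET ranged from 0 to 19.3 CPM with a median of 2.98, and B6xC3H from 0 to 15.3. The groups did not overlap, and the difference held one direction in each tissue, from -6.96 ± 0.87 SE in B cells to -4.70 ± 0.51 SE in lung (over tissues -5.36 ± 0.43 SE on the log2 scale, edgeR adjusted p = 2.73e-11). The highest values were those of B6xPWK lung and B cells. The own entries of the 10 endothelial and stromal marker genes summed to 20.3 and 21 CPM in B6xPWK B cells and 64.2 in B6xSPRET B cells, and to 48.4 CPM in B6xPWK lung and 82.5 and 75.5 in B6xSPRET lung. No entry lies opposite these genes. Since the tables appear to count the other strand, the sums may not measure the RNA of these markers. Tek alone held 56.5 of the 64.2 CPM, and the part of endothelial and stromal cells in the result was not tested. The hotspot sets had no hotspot within 1 kb of the start of Fstl1 in B cells or liver of either hybrid, 3 in kidney and 1 in lung of each. Over the gene body B6xPWK had 8 hotspots in B cells, 22 in kidney, 4 in liver and 13 in lung. B6xSPRET had 2, 15, 2 and 11 there. The B6xPWK sets also hold more hotspots in total in each tissue.

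Gm7760, Usp53 and Gm42031 were also higher in B6xPWK than in the other hybrids. Gm7760, a processed pseudogene on chromosome 8, held 30.4 and 41.9 CPM in B6xPWK B cells, 52.7 in kidney, 54.7 in liver and 81.1 in lung, with B6xSPRET between 0 and 29.0 and no overlap (log2 difference -2.49 ± 0.44 SE, adjusted p = 3.68e-04). Usp53, a gene of the ubiquitin-specific protease family that acts at tight junctions, ranged from 24.9 to 49.0 CPM in B6xPWK and from 2.98 to 25.7 in B6xSPRET (-2.34 ± 0.48 SE, adjusted p = 0.00230). Gm42031, a long noncoding RNA gene on chromosome 8, held 37.2 and 33.9 CPM in B6xPWK B cells, 39.5 in kidney, 44.8 in liver and 111 in lung, and from 0 to 38.4 in B6xSPRET (-1.95 ± 0.38 SE, adjusted p = 0.00142). A hotspot inside Gm42031 was found in the B cell, liver and lung sets of B6xPWK, with a -log10 FDR of 7.3, 4.63 and 1.48, and in no B6xSPRET set. The bases at chr8:85131091-85131219 of GRCm38.p6, plus strand, are given below. Here the RNA was higher in B6xPWK and a hotspot was called only in B6xPWK sets, which was not so at every named gene. Hotspots are calls at an FDR of 5%, and the paper lists more analyzed DNase reads for B6xPWK than for B6xSPRET in each tissue. A missing call in B6xSPRET is therefore no measure of lower accessibility. Hotspots private to 1 hybrid in 3 or more tissues were found in or within 5 kb of 5 named genes. The share of all genes tested with such a hotspot was not counted. At 2 of the 5 they went against the RNA. Hecw2, higher in B6xSPRET, had a hotspot only in the kidney, liver and lung sets of B6xPWK (-log10 FDR of 1.97, 2.16 and 1.61), and Prkcz, lower in B6xSPRET, had one within 5 kb only in those sets of B6xSPRET (6.17, 42.22 and 1.77). Gm49540, described below, had one only in the kidney, liver and lung sets of B6xPWK. Its RNA went both ways, with a log2 difference of -5.37 in liver and 2.05 in lung, and was not called over tissues.
hotspot in Gm42031: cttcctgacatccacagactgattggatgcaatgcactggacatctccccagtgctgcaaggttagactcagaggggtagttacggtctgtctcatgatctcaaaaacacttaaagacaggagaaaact

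In other lower genes B6xPWK and B6xC3H lay together above B6xSPRET. Ccnyl1, a cyclin Y-like gene whose start overlaps that of 2810408I11Rik on the opposite strand, held 147 and 121 CPM in B6xPWK B cells, 37.4 in kidney, 19.9 in liver and 101 in lung. B6xSPRET ranged from 0 to 14.5 CPM, without overlap, and B6xC3H from 20 to 98.3 (log2 difference -3.08 ± 0.40 SE, adjusted p = 2.55e-06). Gm2427, an unprocessed pseudogene opposite Gm16092, held 18.6 and 19.4 CPM in B6xPWK B cells and 202 to 321 in the solid tissues, with B6xSPRET at 5.13 in B cells and between 0 and 77.4 in solid tissues (-2.70 ± 0.37 SE, adjusted p = 4.64e-06). Tmem181a, on chromosome 17 opposite Dynlt1a, a dynein light chain gene, ranged from 24.9 to 182 CPM in B6xPWK and from 4.83 to 35.9 in B6xSPRET (-1.80 ± 0.35 SE, adjusted p = 0.00164). The B6xC3H values of these 3 genes lay near those of B6xPWK, with log2 differences of 0.20, 0.20 and 0.05 between B6xPWK and B6xC3H.

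Gm26804, a long noncoding RNA gene on chromosome 8 that overlaps 2610005L07Rik on the other strand outside its exons, was the most abundant of the named lower genes. It held 850 and 487 CPM in B6xPWK B cells, 516 in kidney, 269 in liver and 653 in lung, and from 94.8 to 231 in B6xSPRET, without overlap (-1.74 ± 0.34 SE, adjusted p = 0.00142). Samd14 ranged from 14.5 to 99.5 CPM in B6xPWK and from 2.57 to 56.4 in B6xSPRET. Its end lies 171 bp from that of Pdk2, a pyruvate dehydrogenase kinase gene on the opposite strand. Gpr61, an orphan G protein-coupled receptor gene, ranged from 19.9 to 76.9 CPM in B6xPWK and from 3.84 to 19.3 in B6xSPRET. Zfp940, a zinc finger gene that overlaps the antisense gene Gm26554, ranged from 33.8 to 64.7 CPM in B6xPWK and from 2.98 to 33.3 in B6xSPRET. Prkcz, the gene of the atypical protein kinase C zeta, which acts in cell polarity and holds the antisense gene Gm27200, ranged from 28.6 to 56.5 CPM in B6xPWK and from 0 to 17.4 in B6xSPRET. The groups did not overlap in Gpr61, Zfp940 and Prkcz, with log2 differences of -1.78, -1.70 and -1.76. The Prkcz call (adjusted p = 0.0423) was lost in 18 of 27 alternatives, its log2 difference staying negative in each.

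**Figure D3:**
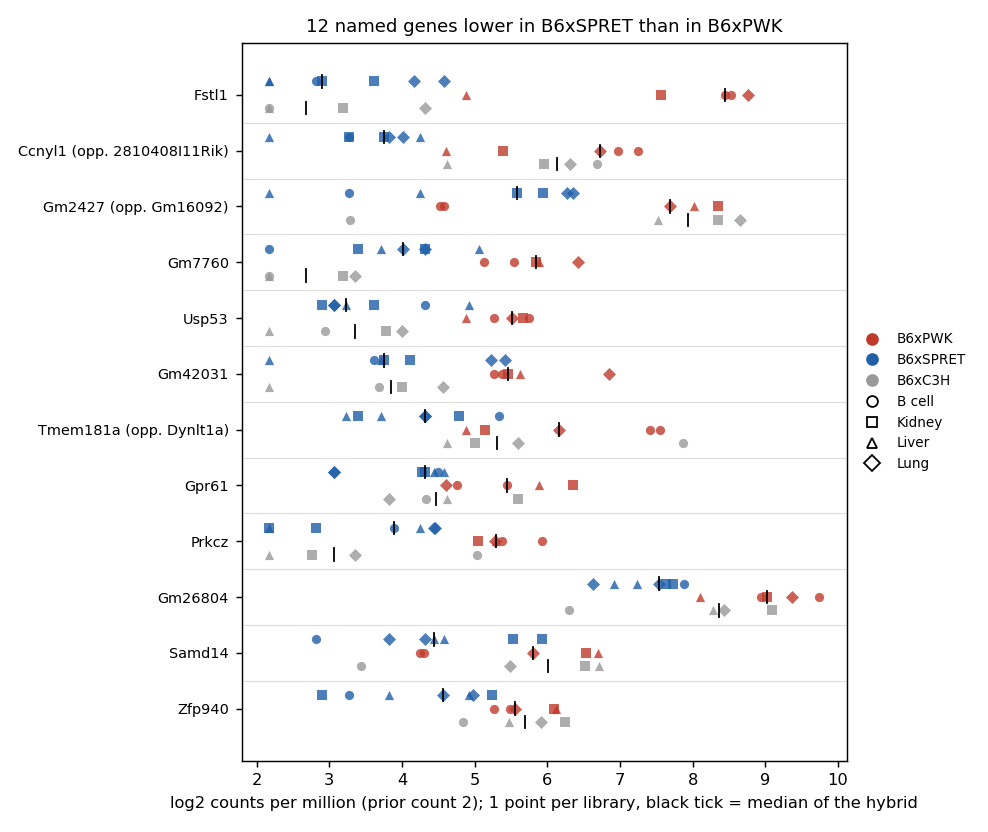
The 12 named genes lower in B6xSPRET, drawn as in the plot of the higher genes: log2 CPM on the horizontal axis, 1 point per library, black ticks at the median of a hybrid. In Fstl1 the 5 red B6xPWK points lie to the right of all blue B6xSPRET and grey B6xC3H points.

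Among the gene lists, 2 opposite entries were called higher in B6xSPRET, and their values differed between tissues and libraries. Sphk2, a sphingosine kinase gene, lies opposite Rpl18, a ribosomal protein gene, and Dbp, a PAR bZIP factor gene whose RNA follows the time of day in liver, kidney and lung. It held 112 and 144 CPM in B6xPWK B cells, 105 in kidney, 94.6 in liver and 95.4 in lung. B6xSPRET held 164 CPM in B cells, 484 and 1130 in kidney, 237 and 1220 in liver and 334 and 917 in lung. All B6xSPRET libraries were above all B6xPWK libraries (log2 difference 2.37 ± 0.45 SE, edgeR adjusted p = 0.00107). The difference was 0.36 ± 0.65 SE in B cells and from 2.71 ± 0.72 SE to 2.93 ± 0.73 SE in the solid tissues, and the test of a difference between tissues gave adjusted p = 0.873. Within B6xSPRET the second library of each solid tissue was higher than the first. The time at which tissues were taken is not given in the sources used here, and the part of the time of day in this result was not tested. The other clock entries tested passed in neither direction: 6 entries of clock genes had a median log2 difference of -0.34 with 0 called, and of 4 entries opposite clock genes Sphk2 was the 1 called. Thra, opposite the repressor gene Nr1d1, had a log2 difference of 0.69 ± 0.33 SE (adjusted p = 0.350).

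4930402D18Rik, an antisense gene opposite A1bg, a gene with higher RNA in female than in male mouse liver, was a liver entry. It held 428 CPM in B6xPWK liver, 7060 and 599 in B6xSPRET liver and 2950 in B6xC3H liver. The 2 B6xSPRET libraries differed more from each other than the lower one did from B6xPWK. The call (log2 difference 3.13 ± 0.85 SE, adjusted p = 0.0359) was lost without the first B6xSPRET liver library (0.80, adjusted p = 0.649) and without the B6xPWK liver library (1.82, adjusted p = 0.645). It was 1 of 2 tested entries opposite sex-biased liver genes, and of 6 tested entries of these genes themselves 0 were called, with a median of -0.48. The Tsix entry, opposite the X inactivation RNA Xist, was at 311 counts or more in each of the 12 libraries and did not pass between the hybrids (log2 difference -0.56 ± 0.32 SE, adjusted p = 0.453). Of X inactivation and escape genes 4 entries and 4 opposite entries were tested with 0 called, with medians of 0.10 and -0.18, and entries of Y-linked single-copy genes passed no low-count filter.

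Of the ribosomal protein genes, the structural proteins of the ribosome, 54 entries were tested and 1, Rps15a, was called, lower in B6xSPRET, where 2.70% of all genes were called. It had 47 counts over the 5 B6xPWK libraries and 5 over the 7 B6xSPRET libraries, 4 of them in B cells (edgeR adjusted p = 0.0326). The call was lost in 13 of 25 alternatives, and the median of the list was 0.22. Of 12 entries opposite ribosomal protein genes the 1 called was Sphk2, named above. Rps15a has intronless copies with which it may share reads. Entries of the mitochondrial genome numbered 15 with 0 called and a median of -0.01. Of the genes of the major histocompatibility complex, 12 entries and 9 opposite entries were tested with 0 called, with medians of 0.03 and 0.25. Interferon-induced genes had 8 entries and 2 opposite entries with 0 called, xenobiotic enzymes 19 and 4 with 0 called, immediate early and heat shock genes 9 and 2 with 0 called, and imprinted genes 12 and 13 with 0 called, their medians lying between -0.38 and 0.53. Noncoding genes of RNA processing had 11 entries and 3 opposite entries with 0 called, with medians of -0.37 and -0.54. None of the liver, kidney, lung, B cell, erythroid or myeloid marker genes tested was called, in their own or opposite entries, and no T cell marker entry passed the filter.

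Of the endothelial and stromal markers 3 entries were tested and 1 was called, Tek, which encodes the angiopoietin receptor TIE2 of endothelial cells. No entry lies opposite Tek. Since the tables appear to count the other strand, its own entry may not count Tek mRNA. Tek held 1 and 0 counts in B6xPWK B cells, 3 in kidney, 0 in liver and 4 in lung. In B6xSPRET it held 22 counts in B cells, 9 and 14 in kidney, 5 and 3 in liver and 8 and 9 in lung (log2 difference 3.15 ± 0.62 SE, edgeR adjusted p = 0.00165). The highest count was in B cells. Pecam1 and Col3a1, markers of endothelium and of fibroblasts, had log2 differences of -0.33 ± 0.81 SE and 0.78 ± 0.96 SE and were not called.

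The most abundant called genes that the naming rule left out were looked up after their values were seen. Of the 15 with the highest mean CPM, 14 were higher in B6xSPRET and 1, Gm16170, was lower. Among all 1146 genes tested with a mean over 100 CPM, 26 were called higher and 10 lower, and the median difference was 0.12. These counts include the 15, so they cannot show whether the direction is particular to the 15. Gm47854, a long noncoding RNA gene on chromosome 9 opposite the pseudogene Gm7293, held 98.0 and 113 CPM in B6xPWK B cells, 1010 in kidney, 1460 in liver and 32.7 in lung. In B6xSPRET it held 470 CPM in B cells, 3920 and 5150 in kidney, 4240 and 4070 in liver and 518 and 700 in lung, above B6xPWK in each tissue (log2 difference 2.36 ± 0.36 SE, edgeR adjusted p = 2.92e-05). B6xC3H ranged from 38.3 to 246 CPM, below B6xPWK except in lung.

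Gm16984 lies opposite Eci2, the gene of an enoyl-CoA isomerase of fatty acid oxidation. It held 32.1 and 56.5 CPM in B6xPWK B cells, 156 in kidney, 468 in liver and 41.3 in lung, and 74.4 CPM in B6xSPRET B cells, 436 and 1010 in kidney, 942 and 3050 in liver and 119 and 157 in lung. Each tissue was higher in B6xSPRET (1.74 ± 0.37 SE, edgeR adjusted p = 0.00328). B6xC3H held 46 CPM in B cells, 410 in kidney, 306 in liver and 59.4 in lung. Zmynd15 lies opposite Cxcl16, a chemokine gene, and was a lung and kidney entry. It held 881 and 991 CPM in B6xSPRET lung against 225 in B6xPWK lung, and 336 and 495 CPM in kidney against 264 (1.34 ± 0.32 SE, edgeR adjusted p = 0.0115). B6xC3H held 768 CPM in lung and 410 in kidney, both above B6xPWK. Gm47079, opposite the adhesion molecule genes Icam1, Icam4 and Icam5, held 4460 and 5580 CPM in B6xSPRET lung, 1020 in B6xPWK lung and 4620 in B6xC3H lung, but 500 CPM in B6xSPRET B cells between the 335 and 513 of B6xPWK (1.20 ± 0.33 SE, adjusted p = 0.0378).

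Gm16170, opposite Trim7, a tripartite motif ubiquitin ligase gene, held 1660 and 1540 CPM in B6xPWK B cells against 803 in B6xSPRET, and 927 CPM in kidney against 710 and 519 (-1.03 ± 0.28 SE, adjusted p = 0.0359). It was lower in B6xSPRET in liver and lung too.

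The X chromosome held 3 called genes of 115 tested (2.61%, against 2.70% of all genes). These 3, and the Y entry below, have no annotated exon on the opposite strand. The annotation thus does not name the transcripts counted in them. Hmgb3, the gene of a high mobility group chromatin protein, ranged from 17.9 to 60.0 CPM in B6xSPRET and from 0 to 9.97 in B6xPWK (2.87 ± 0.45 SE, adjusted p = 6.19e-05). Slc25a5, the gene of a mitochondrial ADP/ATP carrier, was high in B6xSPRET kidney, at 61.5 and 74.6 CPM against 4.39, and ranged from 2.57 to 74.6 over all B6xSPRET libraries (2.58 ± 0.61 SE, adjusted p = 0.0108). Gm14698 was lower (-2.91 ± 0.73 SE, adjusted p = 0.0188). Gm47283, annotated on the Y chromosome, was lower in B6xSPRET, from 9.66 to 42.8 CPM against 54.7 to 219 (-1.52 ± 0.40 SE, adjusted p = 0.0245). It held 193 and 219 CPM in B6xPWK B cells, which came from female mice.

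Some families were counted after their values were seen, and their counts are a description only. Of 27 olfactory receptor entries tested, 6 were called higher in B6xSPRET and 0 lower (22.2% called against 2.70% of all genes), while the family's median was -0.11 and 13 of 27 differences were positive. The called entries were Olfr613, Olfr1279, Olfr624, Olfr646, Olfr77 and Olfr1372-ps1. Olfr77 lies opposite Gm7808 and was far more abundant than the others, from 1910 to 10200 CPM in B6xSPRET and 354 to 3550 in B6xPWK. B6xC3H ranged from 1390 to 11000 CPM in this entry. Of 9 vomeronasal receptor entries, the 2 called were lower in B6xSPRET: Vmn1r51, opposite Gm20426, was at 0 in all 7 B6xSPRET libraries and reached 105 CPM in B6xPWK, and Vmn1r184 reached 180 CPM in B6xPWK and 58.9 in B6xSPRET.

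Entries opposite histone genes lay mostly on 1 side. Replication-dependent histone genes are clustered, are transcribed in S phase and make RNAs without a poly(A) tail. Of 18 entries opposite such genes, 17 had a positive difference, with a median of 1.65 against -0.06 for all genes tested, and 4 were called (22.2% against 2.70% of all genes), all higher in B6xSPRET. Of 30 entries of histone genes themselves, 1 was called higher (H2afz, 1.52 ± 0.43 SE) and 1 lower (Hist3h2a, -2.27 ± 0.63 SE), with a median of 0.57. Beside Gm15444, these were 4930558J22Rik opposite Hist1h4b (2.02 ± 0.43 SE, adjusted p = 0.00409), Gm44346 opposite Hist1h2an (2.01 ± 0.46 SE, adjusted p = 0.00754) and Gm20633 opposite Hist2h2aa1 and Gm20634 (1.40 ± 0.38 SE, adjusted p = 0.0331). 4930558J22Rik ranged from 407 to 1310 CPM in B6xSPRET, 54.1 to 519 in B6xPWK and 128 to 3080 in B6xC3H. The copies are near identical and several entries have the same values, so the 18 are not separate measurements. Gm44394, Gm44350, Gm44486 and Gm44466 were at 0 in all B6xPWK libraries and at most at 1.92 CPM in B6xSPRET. In B6xC3H they reached 23 CPM. Their differences, each 2.55 ± 1.86 SE, count among the 17 positive ones and raise the median. They rest on almost no counts of the 2 hybrids compared.

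**Figure D4:**
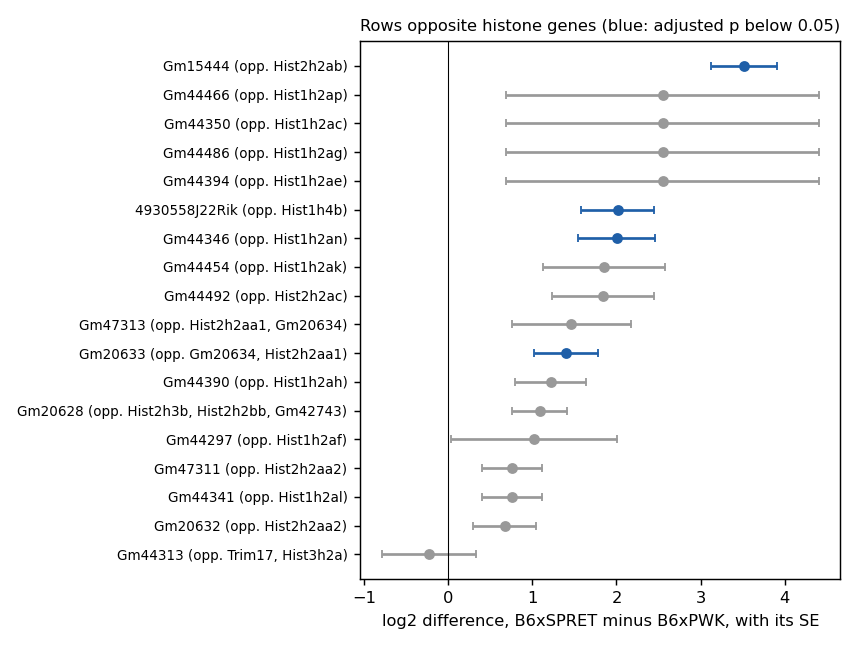
The 18 entries opposite histone genes, each with its log2 difference, B6xSPRET minus B6xPWK, and its SE as a horizontal bar, blue where the adjusted p is below 0.05. All but Gm44313, opposite Trim17 and Hist3h2a, lie to the right of 0.

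The test of whether the hybrid difference depended on tissue called 8 of 7232 genes (0.111%), with 396 at an unadjusted p under 0.05. Tested within each tissue of the same fit, 26 genes were higher and 8 lower in B cells (0.360% and 0.111%), 8 and 9 in kidney (0.111% and 0.124%), 17 and 12 in liver (0.235% and 0.166%) and 40 and 22 in lung (0.553% and 0.304%). Only conditions with 2 libraries measured the spread, with 4 residual degrees of freedom, and in simulated counts of this design a 4-fold change in lung alone was called for 1.5% of changed genes and a 16-fold change for 71.5%. Leaving out either B6xPWK B cell library left 0 genes called (256 and 229 at an unadjusted p under 0.05), and leaving out the B cell tissue also left 0 (294).

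Of the 6 named genes of this test, 3 are antisense genes opposite genes of striated muscle. A930016O22Rik, opposite the muscle creatine kinase gene Ckm, held 106 counts in B6xPWK liver and at most 13 in the other 11 libraries of the 2 hybrids. Gm49540, opposite the myoglobin gene Mb, held 254 counts in B6xPWK liver, 0 and 9 in B6xSPRET liver, 57 in B6xPWK lung and 221 and 128 in B6xSPRET lung. A630019I02Rik, opposite the gene of the muscle protein CMYA5, held 143 counts in B6xPWK liver, 1 and 3 in B6xSPRET liver, 76 in B6xPWK lung and 78 and 164 in B6xSPRET lung. The interaction gave adjusted p = 3.11e-04, 3.14e-04 and 5.80e-05. The list of fat and muscle markers moved with this library: the 2 opposite entries of the 8 markers summed to 532 CPM in B6xPWK liver, 0 and 8.56 in B6xSPRET liver, at most 28.8 in lung and at most 5.13 in the other libraries. The own entries summed to 74.6 CPM in B6xPWK liver and to 0 in both B6xSPRET liver libraries.

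In addition, 4 genes called lower in B6xSPRET rested on the same library. Myhas, opposite the fast myosin gene Myh1, held 158 counts in B6xPWK liver and at most 4 in the other 11 libraries (log2 difference -6.68 ± 0.97 SE, adjusted p = 1.87e-05). 9430073C21Rik, opposite the myosin gene Myh2, held 37 counts there and 0 elsewhere. Ube2c, opposite the troponin gene Tnnc2, held 98 there and at most 9 elsewhere (-3.50 ± 0.70 SE, adjusted p = 0.00211), and Myh1 held 16 and at most 2. Without the B6xPWK liver library all 4 fell below the low-count filter, and the uncalled log2 differences of Gm49540, A930016O22Rik and A630019I02Rik over tissues turned from -2.69, -2.17 and -1.18 to 2.01, 2.08 and 0.80. With 1 B6xPWK liver library, muscle tissue in the sample and a difference between the hybrids cannot be told apart.

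**Figure D5:**
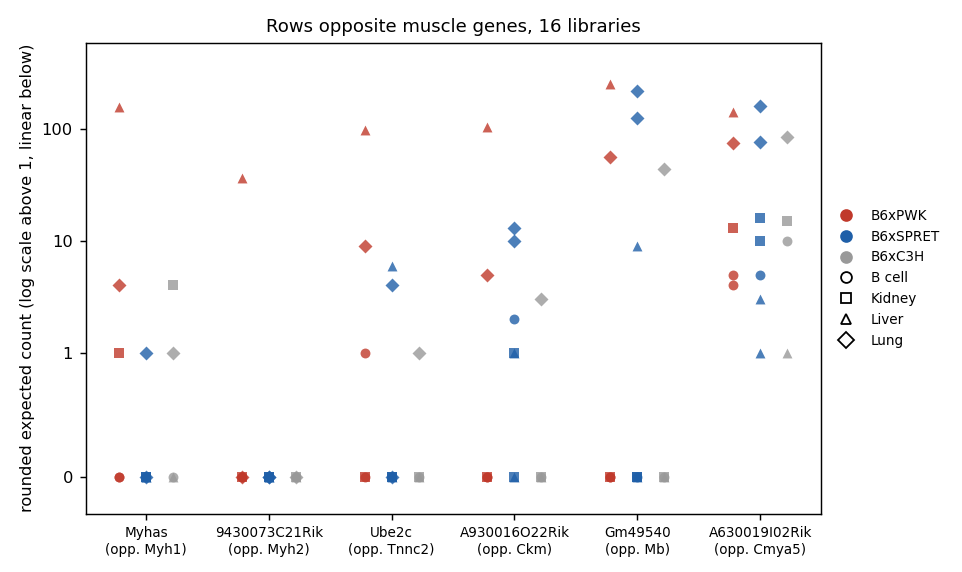
Rounded expected counts of 6 entries opposite muscle genes in the 16 libraries, on an axis that is logarithmic above 1 and linear below. Colour gives the hybrid and shape the tissue. The red triangle of B6xPWK liver lies at 37 to 254 counts, and in Gm49540 and A630019I02Rik the lung libraries of each hybrid also lie above 40.

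The other named genes of the interaction were Rnf121, a ring finger ubiquitin ligase gene, and Gm28438 and Gm28439. Rnf121 has no annotated exon on the opposite strand, and its start lies 42 bp from that of Xndc1 on that strand. Rnf121 held 246 CPM in B6xPWK lung against 9.59 and 11.6 in B6xSPRET lung and 140 in B6xC3H lung. In B cells the 2 hybrids held 45.6, 50 and 48.8 CPM, and the log2 difference was 0.03 ± 0.56 SE there against -4.50 ± 0.54 SE in lung (interaction adjusted p = 0.00571). Gm28438 and Gm28439 are copies of mitochondrial sequence on chromosome 1, which share reads with the mitochondrial genome. Gm28438 was at 0 in B6xPWK lung and at 167 and 159 CPM in B6xSPRET lung, but at 189 and 268 CPM in B6xPWK B cells and 15.4 in B6xSPRET B cells. Gm28439 was at 0 in B6xPWK liver and at 377 and 5430 CPM in B6xSPRET liver. How reads are split between such copies can change from library to library, and these differences are uncertain.

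The starts of called genes were then compared with the hotspot sets, which held from 91621 to 242731 hotspots. Each of the 4 tissues had fewer in B6xSPRET than in B6xPWK, and the paper also lists fewer analyzed DNase reads for B6xSPRET in each. Among the 444 pairs of a gene called higher and a tissue, 258 had a hotspot within 1 kb of the gene's own start in both hybrids, 11 (2.48%) only in B6xSPRET and 13 (2.93%) only in B6xPWK. Over all genes tested these shares were 1.55% and 3.89%. Where the opposite gene starts, 13 of 200 pairs (6.5%) had a hotspot only in B6xSPRET and 3 (1.5%) only in B6xPWK, against 1.44% and 2.84% over all genes tested. The 13 pairs came from a few genes: 4 were the tissues of Supt4b, and Gabra4, Gm6293 and Icam4 gave 2 each. For genes called lower, 2 of 336 pairs at the own start (0.595%) had a hotspot only in B6xSPRET and 4 (1.19%) only in B6xPWK, and 3 of 128 (2.34%) and 6 (4.69%) at the start of the opposite gene, 3 of the 6 at Trim7. There was 1 pooled set per condition, so these shares have no replicate check.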

How the data were processed

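Total RNA was sequenced from B cells, kidney, liver and lung of F1 hybrids, after ribosomal depletion and with a stranded kit. The authors trimmed reads and mapped them with STAR, both to mm10 and to strain-specific genomes. They deposited 1 RSEM table per library, whose expected counts are estimated counts per gene without normalization. The TPM column that the authors deposited beside them, computed by RSEM, was used in 1 alternative. The annotation and strand setting of these tables are not given in the sources used here. Gene names, positions and opposite-strand exons came from GENCODE vM21 (GRCm38.p6), matched by identifier: 53620 of 53715 genes had a name there. The authors deposited DNase hotspots, called at an FDR of 5% on all samples of a hybrid and tissue pooled, with the -log10 of the FDR.

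After rounding, expected counts were tested with edgeR 4.0.16 (R 4.3.3): genes kept by filterByExpr on hybrid and tissue groups, TMM scaling, quasi-likelihood test of B6xSPRET minus B6xPWK with tissue as a covariate, over 16 libraries of 3 hybrids, and Benjamini-Hochberg adjustment with a threshold of 0.05. The same counts gave the test of hybrid by tissue interaction. CPM were taken on the TMM-scaled library size, log2 CPM carry a prior count of 2, and SE is the absolute log2 difference divided by the square root of F. Intervals of summed counts are exact at 95% and, like the floor of 3 counts, cover counting error only. The named genes are the 12 with the largest positive and the 12 with the largest negative difference among called genes of 20 CPM or more on average and 1 sign in 4 tissues, the 6 interaction genes with the smallest p and a mean of at least 20 CPM in a hybrid and tissue, and called members of the lists. The members and the 21 gene lists were chosen with earlier results of these data known.

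Alternatives were DESeq2 1.42.0, limma 3.58.1 on log2(TPM + 1), other scalings and filters, fewer tissues or libraries, opposite-strand genes summed to 1 locus, and, added after the data were seen, filterByExpr on hybrids, a robust fit and a fit without 2 liver libraries. In counts simulated for the hybrid comparison, 26.5% of 2-fold, 95.5% of 4-fold and 99% of 8-fold changes were called (200 changed genes of 6588, 6574 and 6714 tested). Library totals of 283725 to 516134 limit the precision of genes with few counts. A B cell library labelled B6xCAST was left out because its hybrid is named differently in the sources. Hotspot sets of other hybrids were not used. Deposited columns of no mapped sample numbered 0.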

Additional observations from a re-analysis of the deposited data

Results flagged for a closer look

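In 8 of 74 groups 1 library stood apart from the others, where chance gives about 1 in 20 such groups. A group was the 5 B6xPWK or the 7 B6xSPRET libraries, for a named gene or for a measure of the libraries. All 8 were groups of a named gene on the log2 CPM scale. These groups mix tissues, so a gene of 1 tissue can stand apart for that reason. In B6xPWK the library that stood apart was the second B cell library for Olfr613 (2.95), kidney for Gm48094 (3.15), liver for Ctso (7.36), A930016O22Rik (9.05) and 4930402D18Rik (8.76), and lung for Gm42031 (6.85). In B6xSPRET it was the second liver library for Gm17728 (9.13) and the B cell library for Rps15a (3.88).

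The hybrid difference depended on tissue in edgeR's quasi-likelihood interaction test for 6 named genes, which were opposite genes of striated muscle in 3 cases. The adjusted p was 3.14e-04 for Gm49540, 3.11e-04 for A930016O22Rik and 5.8e-05 for A630019I02Rik. It was 0.00571 for Rnf121, 0.00571 for Gm28438 and 6.65e-04 for Gm28439. Of the 8 genes called in this test, 0 were called without the first or without the second B6xPWK B cell library (256 and 229 at an unadjusted p under 0.05).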

How the results depend on the processing

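The log2 differences of the 27 genes named for the hybrid comparison kept their sign in every alternative in which they were tested. The uncalled differences of the interaction genes Gm49540, A930016O22Rik and A630019I02Rik turned from negative to positive without the B6xPWK liver library (2.01, 2.08 and 0.80). Over the 27 genes, 299 values that leave out 1 library kept their call and 24 lost it, and 374 values under other alternatives kept it and 45 lost it. The count of called genes (195, with 111 higher and 84 lower) fell to 68 (27 and 41) under limma on log2(TPM + 1), to 65 (36 and 29) under a stricter filter that kept 3115 genes, and to 86 (46 and 40) with filterByExpr on hybrids. It was 88 (56 and 32) without kidney, 47 (28 and 19) without lung and 105 (66 and 39) with only the first B6xSPRET library of each tissue. Leaving out 1 library gave 105 to 181 called genes, 54 to 104 higher and 51 to 77 lower. DESeq2 called 148, and summing opposite-strand genes to 1 locus called 155, with 5 of the 195 on the other side. Under limma the calls of Etf1, Ctso, Hecw2, Zfp940, Gm26804, Gm2427, Sphk2 and 4930402D18Rik were lost. The cause of these changes was not tested.

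The interaction called 8 genes, 0 without B cells (edgeR, 294 at an unadjusted p under 0.05) and 0 to 29 when 1 library was left out. DESeq2's likelihood ratio test called 10 of 1203 genes, 3 of them among the 8. Without a low-count filter, medians of lists moved to 0.15 (opposite X inactivation genes), 0.69 (opposite sex-biased liver genes), 0.60 (clock genes), -0.22 (opposite clock genes), -0.86 (opposite immediate early genes), -0.065 (opposite ribosomal protein genes), -0.31 (B cell markers) and 0.053 (opposite myeloid markers). With a window of 5 kb the share of pairs with a hotspot only in B6xPWK was 5.41% at the own start and 4.5% at the opposite start of higher genes, and 4.76% at the own start of lower genes. No paired analysis was possible because the labels give the libraries of the 2 hybrids no shared replicate numbers. Genes with few counts limit precision: 1 count was worth between 1.42 and 8.56 CPM.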
